A study of Saccharomyces cerevisiae with 4 samples.

Results

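The mitochondrial chromosome of budding yeast gave 55 of the 7127 features in the count table, and they were taken as every feature whose first listed chromosome is Mito, with no measured value used. They comprise 7 mRNAs of the respiratory chain and the ATP synthase, the ribosomal protein mRNA VAR1, 2 rRNAs, the RNase P RNA RPM1, 10 open reading frames inside introns, 24 tRNA genes and 10 other open reading frames. RNA came from BY4742, a haploid laboratory strain with the markers MATα, his3Δ1, leu2Δ0, lys2Δ0 and ura3Δ0 in both groups. Exponential cultures in the rich glucose medium YPD were given 5 mM TUDCA (tauroursodeoxycholic acid, a conjugated bile acid) for 2 h in the TUDCA group, and grew without it in the Ctrl group, with 2 libraries in each. Libraries were stranded and enriched for polyadenylated RNA with oligo(dT), per the labels. Whether the replicates were separate cultures is not stated, so p-values here measure only the spread between these libraries, which may be technical.

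Assigned counts totalled 74963319 and 85380303 in the TUDCA libraries and 74080860 and 97133389 in the Ctrl libraries. One library, Ctrl replicate 2, was set apart: over all tested features the SD of the log2 ratio between libraries was 0.28 to 0.33 for the pairs with it and 0.17 to 0.19 for the pairs without it. Values without it are given beside the results that it moved. LEU2 and URA3 had 0 counts in every library and LYS2 had 2 at most, as their deletion alleles would give. HIS3 had 11172 to 17246 counts, from a locus that the his3Δ1 allele leaves in part.

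Yeast mitochondrial DNA encodes a few core subunits of cytochrome bc1, cytochrome oxidase and the ATP synthase, together with the RNAs and 1 protein of the ribosome that translates them. A single-subunit polymerase, Rpo41, with its partner Mtf1 starts transcription at a short conserved promoter, and the long primary transcripts are cut at tRNAs and at a conserved dodecamer behind the coding regions. Mature mitochondrial mRNAs of yeast end at that dodecamer and carry no poly(A) tail, unlike nuclear mRNAs. Several genes hold group I or group II introns whose reading frames encode maturases, reverse transcriptases or homing endonucleases. In glucose medium yeast ferments and represses respiration. Levels below are therefore those of RNA that passed the enrichment. In such bulk RNA, fewer mitochondrial genomes per cell, less RNA per genome and less untailed RNA passing the enrichment cannot be told apart.

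Copies of the promoter and of the processing site are printed from RefSeq's R64 sequence. The promoter nonanucleotide, ATATAAGTA, was read from the bases just before the 21S rRNA and searched on both strands. It occurred 11 times on the plus strand and 3 times on the minus strand of the 85779-base chromosome, so that 2.33% and 0.673% of all 200-base windows held it on the plus and the minus strand. It directly preceded the 21S rRNA, ended 76 bases before the 15S rRNA, 461 bases before the COX1 coding region and 566 bases before that of OLI1. The 200 bases upstream of the coding region held it in 0 of the 8 mRNAs. Capitals mark the nonanucleotide, all on the plus strand.
21S_RRNA promoter, Mito:57990-58019: attattatatATATAAGTAgtaaaaagtag
15S_RRNA promoter, Mito:6452-6481: atttattattATATAAGTAataaataatag
COX1 upstream, Mito:13339-13368: ataagtattgATATAAGTAatagatataat
OLI1 upstream, Mito:46139-46168: atacacatttATATAAGTAtatatatatat

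The dodecamer, AATAATATTCTT, was read from the sequence behind COX1. It occurred 9 times on the plus strand and 2 times on the minus strand, in 1.99% and 0.442% of 200-base windows on those strands. It lay within 200 bases downstream of the coding region in 5 of the 8 mRNAs (62.5%): COX1, which holds it by construction, ATP6, COB, COX2 and COX3. For VAR1 the nearest copy was 580 bases downstream, and OLI1 and ATP8 also had none within 200 bases. Copies also lay at the end of SCEI, the reading frame in the 21S rRNA intron, and 40 bases behind AI5_BETA, the reading frame in a late COX1 intron. These sites are shown because SCEI and AI5_BETA were the most abundant of the intron-encoded features. Capitals mark the dodecamer on the plus strand, and a match describes the letters only.
COX1 end, Mito:26761-26790: taatataatAATAATATTCTTataaaaata
SCEI end, Mito:61716-61745: cttttttaaAATAATATTCTTatttttatt
AI5_BETA end, Mito:25286-25315: tgttaattaAATAATATTCTTtttttttta
COX3 end, Mito:80114-80143: tattattatAATAATATTCTTacaaatata

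Mitochondrial features overlap heavily, and overlaps decided what each feature could count. Over the whole table, 183 of 190 features covered over their full length by other features on either strand were at 0 throughout (96.3%), and so were 51 of 5726 with no overlap (0.891%). Reads in overlaps were thus left out of the counts, and levels per length were computed over own bases, the bases of a feature that no other feature covers. COX1 kept 633 of its 1605 bases, all in exons 6 to 8 of 8, because AI1 to AI5_ALPHA are annotated from its start through the upstream exons. The own bases of AI1, AI2, AI3, AI4, AI5_ALPHA and AI5_BETA lie in introns 1 to 6 in that order, with 0 bases in exons. The mRNA of COX1 was therefore measured by its last exons and its introns by the reading frames. Of 50-base stretches of the members, nuclear chromosomes held 181 of 1756 for BI4 and 5 of 1600 for the 15S rRNA, and 0 for every other member.

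Mitochondrial features took 0.0112% and 0.0134% of the counts in the TUDCA libraries and 0.0146% and 0.0197% in the Ctrl libraries. These are 8383 and 11413 counts in TUDCA replicates 1 and 2, against 10845 and 19157 counts in Ctrl replicates 1 and 2. In counts-per-million units (CPM) of the assigned counts, TUDCA replicate 1 had 112 (exact 95% interval 109 to 114) and TUDCA replicate 2 had 134 (131 to 136). Ctrl replicate 1 had 146 (144 to 149) and Ctrl replicate 2 had 197 (194 to 200), and the intervals cover counting error only. Both TUDCA libraries were below both Ctrl libraries.

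The mean was 123 ± 15.4 CPM in TUDCA and 172 ± 35.9 CPM in Ctrl (SD, n = 2 each), a log2 ratio of means of -0.49. The exact two-sided permutation test over the libraries gave p = 0.333, the smallest value that 2 against 2 allows. Ctrl replicate 2 was 1.35 times Ctrl replicate 1, a spread close to the 1.40-fold that Ctrl stood above TUDCA. Without Ctrl replicate 2 the log2 ratio was -0.25. With every member but the 21S rRNA it was -0.53. It was also -0.53 with the mRNAs, the intron reading frames and the other open reading frames alone.

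**Figure D1:**
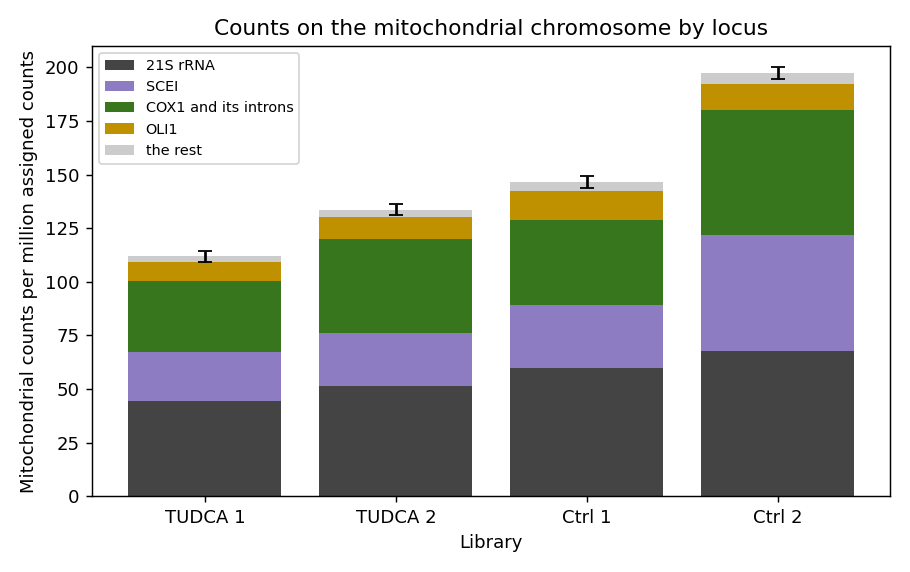
Mitochondrial counts in CPM (vertical axis) in the 2 TUDCA and the 2 Ctrl libraries, stacked by locus. The stacks reach 112 and 134 in TUDCA and 146 and 197 in Ctrl, and the 21S rRNA, SCEI, COX1 with its introns and OLI1 fill nearly all of each.

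A handful of loci held almost all of these counts. The 21S rRNA, SCEI, COX1 with its 6 intron reading frames, and OLI1, 10 features in all, held 97.6% and 97.3% of the mitochondrial counts in the TUDCA libraries and 97.4% and 97.6% in the Ctrl libraries. The 21S rRNA alone held 39.5% and 38.4% in TUDCA and 40.8% and 34.4% in Ctrl. SCEI held 20.6% and 18.4% in TUDCA and 20.2% and 27.5% in Ctrl, so that its share was similar in 3 libraries and higher in Ctrl replicate 2. The COX1 locus held 29.6% and 32.9% in TUDCA and 26.9% and 29.5% in Ctrl. The other 45 features held 2.37% and 2.69% in TUDCA and 2.61% and 2.41% in Ctrl. Of all 55 members, 23 had 0 counts in every library, 32 had at least 1 count and 14 averaged 10 or more, while the 41 under that mean held 158 of the 49798 counts of the 4 libraries.

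Levels in CPM per kilobase of own bases, averaged over the 4 libraries, set the members in an order led by OLI1, SCEI, COX1 and the 21S rRNA. OLI1, the proteolipid ring subunit of the ATP synthase, stood at 38.1 and 43.7 in TUDCA and 60.2 and 53.6 in Ctrl. It had only 231 own bases, and levels per length were not corrected for read length. SCEI stood at 32.5 and 34.8 in TUDCA and 41.7 and 76.6 in Ctrl, and its range over the 4 libraries overlapped that of OLI1. COX1, the core subunit of cytochrome oxidase, followed at 14.9 and 19.8 in TUDCA and 20.3 and 31.1 in Ctrl. The 21S rRNA, the large ribosomal RNA, was at 13.4 and 15.6 in TUDCA and 18.1 and 20.6 in Ctrl, a range that overlapped that of COX1.

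Lower in the order came AI5_BETA, with a mean of 12.4 CPM per kilobase over the 4 libraries, AI5_ALPHA with 5.64, AI4 with 4.22 and AI2 with 1.74. VAR1 (1.33), AI1 (1.06), AI3 (1.01) and the 15S rRNA (0.804) had overlapping ranges over the libraries. ATP6 (0.226) and BI2 (0.166) were the lowest of the 14 members with a mean of at least 10 counts. Within the respiratory genes the level of OLI1 thus exceeded that of ATP6, which encodes another membrane subunit of the same ATP synthase, by 48.9 against 0.226 CPM per kilobase on average.

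**Figure D2:**
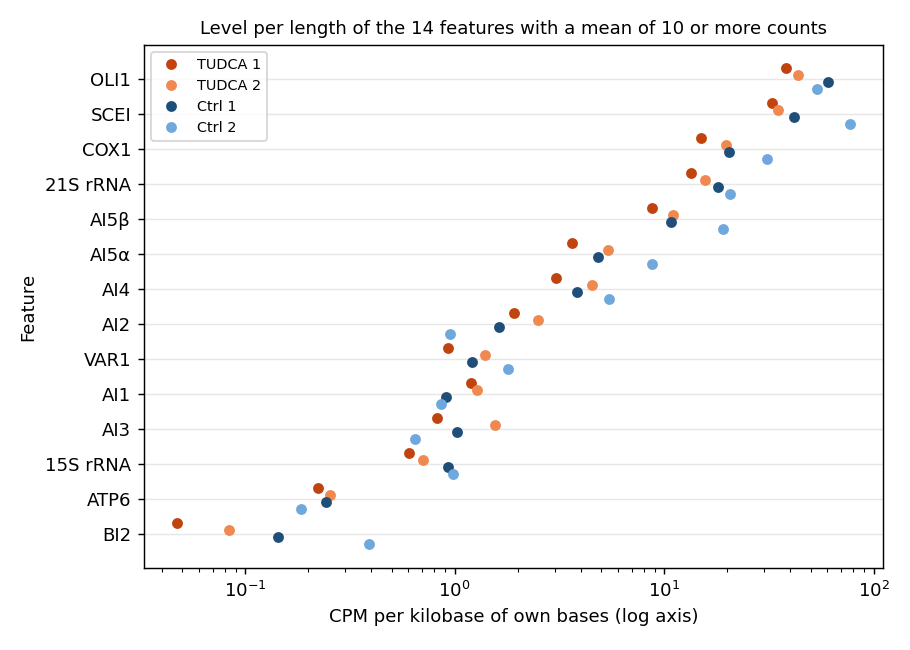
Level of the 14 members with a mean of at least 10 counts, in CPM per kilobase of own bases on a log axis, with 1 point per library and TUDCA above Ctrl in each row. OLI1 and SCEI lie highest, and ATP6 and BI2 lie lowest in the 4 libraries.

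Runs of adenines inside a feature can anneal to oligo(dT), so the longest run in the own bases is shown for the 21S rRNA, AI5_BETA and OLI1 with the run in capitals. The run was 10 bases in the 21S rRNA and in AI5_BETA, 8 in SCEI, 9 in VAR1, 5 in COX1, 4 in COB and COX3 and 3 in OLI1. Long runs were found at high levels (the 21S rRNA, SCEI and AI5_BETA) and at a low level (VAR1). The shortest of these runs was in OLI1, the member with the highest mean level per own kilobase. Own bases leave out the flanking and overlapped sequence of the transcripts, and priming at these runs was not tested. Over the 14 members with a mean of at least 10 counts, Spearman's rho between the longest run and CPM per own kilobase was 0.17, a description over features that share libraries and transcripts.
21S_RRNA, Mito:60338-60367: attattgaatAAAAAAAAAAtaatatatat
AI5_BETA, Mito:24592-24621: gaaatattatAAAAAAAAAAgaacaagaag
OLI1, Mito:46731-46760: agtattagcagctAAAtatattggagcagg

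The mitochondrial rRNAs were lower in both TUDCA libraries. The 21S rRNA (Q0158, R64 Mito:58009-62447, plus strand) had 3314 and 4384 counts in TUDCA and 4427 and 6581 counts in Ctrl. In CPM scaled by TMM factors it averaged 47.1 ± 5.17 in TUDCA and 64.8 ± 6.95 in Ctrl (SD, n = 2 each). On the log2 scale the fold change was -0.46 (SE 0.11, 95% interval -0.71 to -0.21; adjusted p 0.397 in edgeR's quasi-likelihood test). The groups did not overlap, and without Ctrl replicate 2 the log2 fold change was -0.34.

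The 15S rRNA (Q0020, Mito:6546-8194), the small ribosomal RNA, had 75 and 99 counts in TUDCA and 113 and 157 counts in Ctrl. Its TMM-scaled level was 1.06 ± 0.115 CPM in TUDCA and 1.60 ± 0.0952 CPM in Ctrl (SD, n = 2 each). Its log2 fold change of -0.58 (SE 0.21) had an edgeR adjusted p of 0.544 and was -0.52 without Ctrl replicate 2. The ratio of the 15S to the 21S counts was 0.0226 in both TUDCA libraries, and 0.0255 and 0.0239 in the Ctrl libraries. Per kilobase of own bases the small rRNA averaged 0.804 CPM over the 4 libraries and the large rRNA 16.9 CPM, although each ribosome holds both.

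SCEI (Q0160, Mito:61022-61729) lies in the intron of the 21S rRNA gene and encodes the homing endonuclease I-SceI, which spreads that intron to intronless copies of the gene. It had 1727 and 2101 counts in TUDCA and 2187 and 5269 counts in Ctrl. Ctrl replicate 2 was alone in its high value, and the other 3 libraries lay close together. The TMM-scaled mean was 23.5 ± 1.19 CPM in TUDCA and 42.7 ± 18.5 CPM in Ctrl (SD, n = 2 each), with a log2 fold change of -0.87 (SE 0.25) and an edgeR adjusted p of 0.544. Without Ctrl replicate 2 the log2 fold change was -0.33. SCEI had 0.521 and 0.479 counts for each count of the 21S rRNA in TUDCA, and 0.494 and 0.801 in Ctrl, groups that overlapped (exact permutation p = 0.667).

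At the COX1 locus (Q0045, Mito:13818-26701, 8 exons) the level was low over AI1 to AI3 in introns 1 to 3 and then climbed in every library, through AI4, AI5_ALPHA and AI5_BETA up to the last exons. In TUDCA replicate 1 the level was 1.20 CPM per kilobase in AI1, 1.91 in AI2, 0.823 in AI3, 3.06 in AI4, 3.62 in AI5_ALPHA, 8.74 in AI5_BETA and 14.9 in COX1. In Ctrl replicate 2 it was 0.859 in AI1, 0.951 in AI2, 0.645 in AI3, 5.46 in AI4, 8.73 in AI5_ALPHA, 19.1 in AI5_BETA and 31.1 in COX1. TUDCA replicate 2 was lowest in AI1 at 1.28, and stood at 1.56 in AI3 and 19.8 in COX1. Ctrl replicate 1 was also lowest in AI1, at 0.913, and stood at 1.02 in AI3 and 20.3 in COX1. A step down from AI2 to AI3 was in all 4 libraries.

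COX1 had 707 and 1068 counts in TUDCA and 954 and 1912 counts in Ctrl, and Ctrl replicate 2 was the highest. The TMM-scaled mean was 10.8 ± 2.19 CPM in TUDCA and 16.6 ± 5.20 CPM in Ctrl (SD, n = 2 each), with a log2 fold change of -0.62 (SE 0.23; -0.25 without Ctrl replicate 2) and an edgeR adjusted p of 0.544. AI5_BETA, a reading frame of unknown function, had 698 and 1006 counts in TUDCA and 848 and 1971 counts in Ctrl. Its counts followed those of COX1, and the ratio of the 2 was 0.987 and 0.942 in TUDCA and 0.889 and 1.03 in Ctrl. AI5_ALPHA and AI4, which encode homing endonucleases or maturases, had 250 and 426 counts and 218 and 369 counts in TUDCA, against 328 and 781 counts and 269 and 504 counts in Ctrl. The groups of all 3 reading frames overlapped. Their log2 fold changes were -0.64 for AI5_BETA, -0.63 for AI5_ALPHA and -0.33 for AI4 with edgeR adjusted p of 0.544, 0.544 and 0.599, and without Ctrl replicate 2 they were -0.14, -0.11 and -0.022.

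The early introns had the other direction. AI1 and AI2 are in group II introns and encode proteins with maturase and reverse transcriptase activity. AI1 had 210 and 255 counts in TUDCA and 158 and 195 counts in Ctrl, and its TMM-scaled mean was 2.85 ± 0.141 CPM in TUDCA and 2.10 ± 0.0505 CPM in Ctrl (SD, n = 2 each). AI2 had 338 and 501 counts in TUDCA and 285 and 218 counts in Ctrl, with a mean of 5.11 ± 0.968 CPM in TUDCA and 3.08 ± 1.09 CPM in Ctrl. Neither group pair overlapped in TMM-scaled CPM. The log2 fold change was 0.44 (SE 0.18) for AI1 and 0.74 (SE 0.26) for AI2, each with an edgeR adjusted p of 0.544. Without Ctrl replicate 2 these values were 0.42 and 0.41. AI3, which encodes an endonuclease, had 62 and 134 counts in TUDCA and 76 and 63 counts in Ctrl, so that its groups overlapped (log2 fold change 0.50, edgeR adjusted p 0.581, and 0.22 without Ctrl replicate 2).

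For each count in AI5_ALPHA and AI5_BETA together, AI1 and AI2 together had 0.578 and 0.528 counts in TUDCA, against 0.377 and 0.150 in Ctrl, a ratio chosen after the values were seen. Both TUDCA values were above both Ctrl values, with means of 0.553 ± 0.0354 in TUDCA and 0.263 ± 0.160 in Ctrl (SD, n = 2 each). The exact permutation test gave p = 0.333, the smallest that this design allows. The TUDCA mean was 2.10 times that of Ctrl, and 1.47 times the value of Ctrl replicate 1 when Ctrl replicate 2 was left out. The 2 Ctrl libraries also differed from each other along the locus: the log2 ratio of Ctrl replicate 2 to Ctrl replicate 1 was -0.049 for AI1, -0.74 for AI2, -0.62 for AI3, 0.55 for AI4, 0.90 for AI5_ALPHA, 0.86 for AI5_BETA and 0.65 for COX1. Between the TUDCA libraries all 7 features of the locus were higher in replicate 2, by 0.10 (AI1) to 0.93 (AI3) on the log2 scale.

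**Figure D3:**
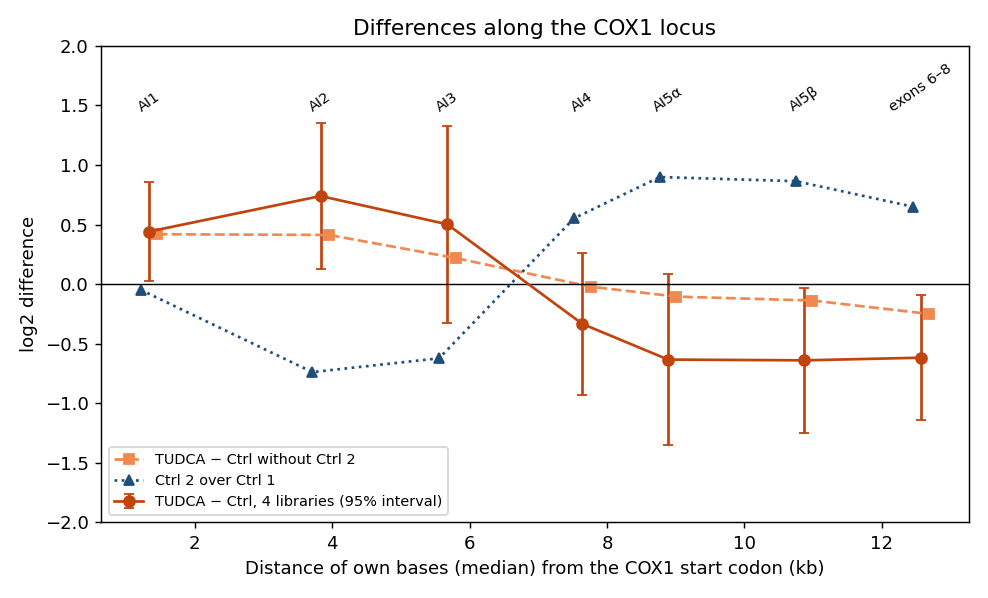
Log2 differences of COX1 and its 6 intron reading frames against the distance of their own bases from the COX1 start codon in kilobases: TUDCA minus Ctrl with 95% intervals from edgeR, the same without Ctrl replicate 2, and Ctrl replicate 2 over Ctrl replicate 1. TUDCA minus Ctrl was 0.44, 0.74 and 0.50 in introns 1 to 3 and -0.62 in the last exons, and the Ctrl libraries differed from each other by -0.74 to 0.90.

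Among the other mRNAs OLI1 had the most counts and VAR1 followed, while the rest had at most 17 counts in any library. OLI1 (Q0130, Mito:46723-46953) had 660 and 862 counts in TUDCA and 1030 and 1202 counts in Ctrl. Its TMM-scaled mean was 9.31 ± 0.939 CPM in TUDCA and 13.3 ± 0.848 CPM in Ctrl (SD, n = 2 each), and the groups did not overlap. Its log2 fold change of -0.52 (SE 0.13, 95% interval -0.83 to -0.21) had an edgeR adjusted p of 0.486, and it was -0.58 without Ctrl replicate 2. OLI1 differed in this from SCEI and the late part of COX1, since Ctrl replicate 2 was not its highest library in CPM.

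VAR1 (Q0140, Mito:48901-50097), the ribosomal protein of the small subunit, had 83 and 142 counts in TUDCA and 107 and 208 counts in Ctrl, and the groups overlapped (log2 fold change -0.42, SE 0.29, edgeR adjusted p 0.580). Its log2 fold change was -0.072 without Ctrl replicate 2. ATP6 (Q0085, Mito:28487-29266) had 13 and 17 counts in TUDCA and 14 and 14 counts in Ctrl. Its log2 fold change of 0.14 had a 95% interval from -0.77 to 1.05, so no difference was detectable at this depth, and it was -0.037 without Ctrl replicate 2. ATP8 (Q0080), a small subunit of the ATP synthase, had 0 and 1 counts in TUDCA and 1 and 1 in Ctrl.

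COX2 (Q0250), the oxidase subunit that receives electrons from cytochrome c, had 5 and 1 counts in TUDCA and 5 and 11 in Ctrl. COX3 (Q0275), the third core subunit, had 6 and 5 counts in TUDCA and 7 and 2 in Ctrl. Both mRNAs are therefore known here from 11 reads at most in any library.

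COB (Q0105, Mito:36540-43647, 6 exons), cytochrome b of the bc1 complex, had 2 and 6 counts in TUDCA and 6 and 1 in Ctrl. Its intron reading frames encode maturases, which help to splice the COB introns. BI2 had 3 and 6 counts in TUDCA and 9 and 32 in Ctrl, BI3 had 0 and 0 in TUDCA and 0 and 3 in Ctrl, and BI4 had 3 and 11 in TUDCA and 11 and 9 in Ctrl. The locus summed to 8 and 23 counts in TUDCA and 26 and 45 counts in Ctrl, and most of the highest sum came from BI2 in Ctrl replicate 2. BI4 was tested (log2 fold change -0.47, 95% interval -1.92 to 0.98, edgeR adjusted p 0.744; -0.78 without Ctrl replicate 2), and part of its sequence also lies in nuclear chromosomes. BI2 averaged over 10 counts but failed the low-count filter and was not tested.

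RPM1 (Q0285, Mito:85295-85777), the RNA of the RNase P that trims the 5′ ends of mitochondrial tRNAs, had 3 and 8 counts in TUDCA and 4 and 6 in Ctrl. Q0297 lies wholly inside RPM1 and had 0 counts in all libraries. Of the 24 tRNA genes, 19 had 0 counts in every library, and the other 5 had 3 counts at most and 11 in sum. The highest of them, the threonine tRNA tT(UAG)Q2, the sole member on the minus strand, had 1 and 0 counts in TUDCA and 0 and 3 in Ctrl. The 10 other reading frames had 4 counts at most in any library and 29 in sum, and 6 of them had any. A count of 0 allows up to 3 counts, or 0.0400 and 0.0351 CPM in the TUDCA libraries and 0.0405 and 0.0309 CPM in the Ctrl libraries, so these genes are not shown to be silent. That bound does not apply to Q0297 and tL(UAA)Q, which had 0 and 5 own bases.

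The low-count filter kept 14 of the 55 members, and edgeR called 0 of them at an adjusted p under 0.05, where it called 0.0935% of the 6420 features tested (6 features). At an unadjusted p under 0.05 it gave 8 of 14 members, 6 lower and 2 higher in TUDCA, against 8.32% of all features. The median log2 fold change was -0.47 over the 14 members and -0.0037 over all features, with 10 members below 0 and 4 above. Without Ctrl replicate 2 the median was -0.12 over the 14 members tested and 0.0018 over all features. In TMM-scaled CPM, both TUDCA libraries were below both Ctrl libraries for 5 of 14 members (15S, COX1, OLI1, 21S and SCEI), against 23.9% of all features. Both were above for 2 of 14, AI1 and AI2, against 23.7% of all features. Members share transcripts and the ratio of mitochondrial to nuclear RNA, so they are not independent of each other.

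The calls differed with the tool, and the size of the fold changes differed with the libraries in the fit. DESeq2 called 1 of the 9 members to which it gave an adjusted p, the 21S rRNA (log2 fold change -0.46, adjusted p 0.0439), against 1.05% of all features. Its adjusted p ranged from 0.000578 to 0.998 over the alternatives of scaling, filter, tool and left-out library. Without Ctrl replicate 1, edgeR called 11 members, 10 lower and AI2 higher in TUDCA, in a fit that called 31% of all features. Without Ctrl replicate 2 it called 0 members and 0.667% of all features. Without TUDCA replicate 2 it called SCEI (log2 fold change -0.92, adjusted p 0.0201) and 0.341% of all features, and the adjusted p of SCEI ranged from 1.16e-06 to 0.554 over the same alternatives. Without TUDCA replicate 1 it called 0 members and 0.108% of all features.

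**Figure D4:**
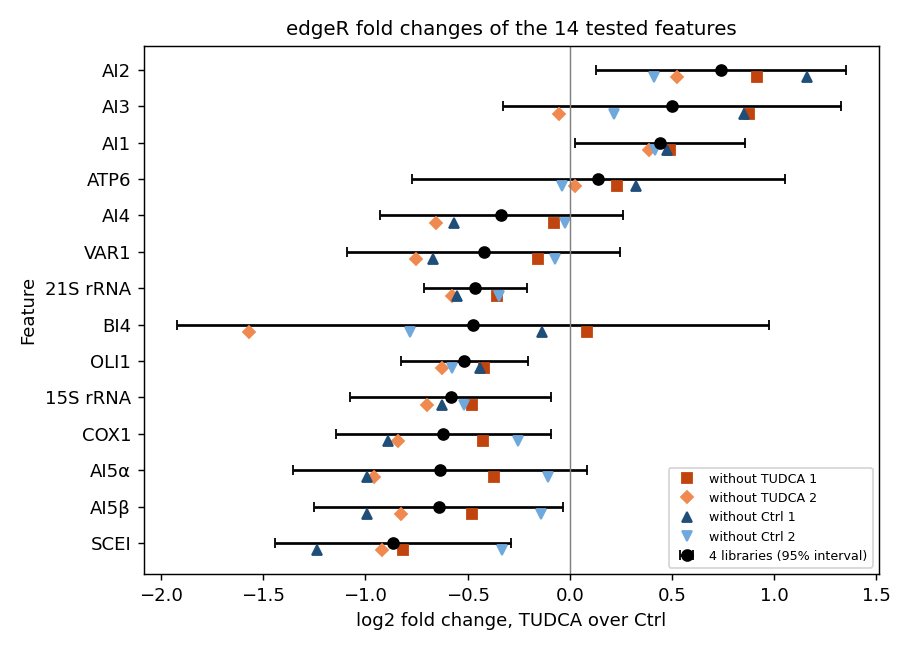
The log2 fold change of TUDCA over Ctrl for the 14 tested members, with 95% intervals from edgeR in black and the values with each library left out as symbols. Only AI3, ATP6 and BI4 change sign between the fits drawn. AI1 and AI2 lie above 0 in every fit, and the remaining members lie below 0. The values of SCEI, COX1 and the late introns come closest to 0 without Ctrl replicate 2.

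Genes of the nucleus that read, process and translate the mitochondrial chromosome, or that supply the partner subunits, were examined beside it in 8 lists. All 150 listed genes were tested, and edgeR called 0 of them, with 6 at an unadjusted p under 0.05 (5 higher and 1 lower in TUDCA), a share below the 8.32% of all features. Their median log2 fold change was 0.012, and no list had a median beyond 0.11 in size. The transcription list (4 genes) had a median of 0.064, RNA processing and splicing (14) 0.089, translational activators (17) 0.029 and DNA maintenance (10) 0.016. The partners of complex III (9) had a median of 0.11, those of complex IV (9) 0.026 and those of the ATP synthase (17) 0.031. The 70 mitochondrial ribosomal proteins had a median of -0.012. The medians of the 8 lists lay between 0.0090 and 0.13 without Ctrl replicate 2, and then that of the RNA processing list was 0.036.

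RPO41, the mitochondrial RNA polymerase, averaged 141 ± 0.450 CPM in TUDCA and 116 ± 28.0 CPM in Ctrl (SD, n = 2 each), a log2 fold change of 0.28 that was 0.053 without Ctrl replicate 2. RPM2, the protein of the mitochondrial RNase P, averaged 226 ± 1.09 CPM in TUDCA and 182 ± 19.5 CPM in Ctrl (log2 fold change 0.32, edgeR adjusted p 0.544). AEP2, needed to translate OLI1, averaged 53.6 ± 0.135 CPM in TUDCA and 46.4 ± 2.30 CPM in Ctrl (log2 fold change 0.21). PET111, the activator of COX2 translation, averaged 37.2 ± 2.68 CPM in TUDCA and 31.2 ± 2.63 CPM in Ctrl (0.26). Without Ctrl replicate 2 the log2 fold change was 0.21 for RPM2, 0.16 for AEP2 and 0.17 for PET111. For each of these genes the mean was higher in TUDCA, and none was called.

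COR1, a core subunit of the bc1 complex, averaged 869 ± 7.45 CPM in TUDCA and 727 ± 54.8 CPM in Ctrl (log2 fold change 0.26, and 0.18 without Ctrl replicate 2). COX5B, the form of oxidase subunit V used at low oxygen, averaged 325 ± 17.6 CPM in TUDCA and 405 ± 4.16 CPM in Ctrl (log2 fold change -0.32, edgeR adjusted p 0.544), and it was the lowest of the 150. ATP2, the catalytic subunit of the ATP synthase, averaged 2220 ± 11.8 CPM in TUDCA and 1887 ± 76.8 CPM in Ctrl (0.23). RSM22 had the highest value of the mitochondrial ribosomal list, 0.24, which was 0.092 without Ctrl replicate 2. Smaller log2 fold changes were those of NAM2, a tRNA synthetase that also serves in splicing (0.16, and 0.098 without Ctrl replicate 2), SLS1, which links transcription to translation (0.083, and 0.036 without it), and the DNA helicase PIF1 (0.12). RIM1, the single-stranded DNA binding protein, was at -0.15 and the ribosomal protein MRP17 at -0.13, and without Ctrl replicate 2 these were -0.050 and -0.071. RIP1, the Rieske protein of complex III, was at 0.19, the oxidase subunit COX12 at 0.11 and TIM11, which joins ATP synthase dimers, at 0.13.

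**Figure D5:**
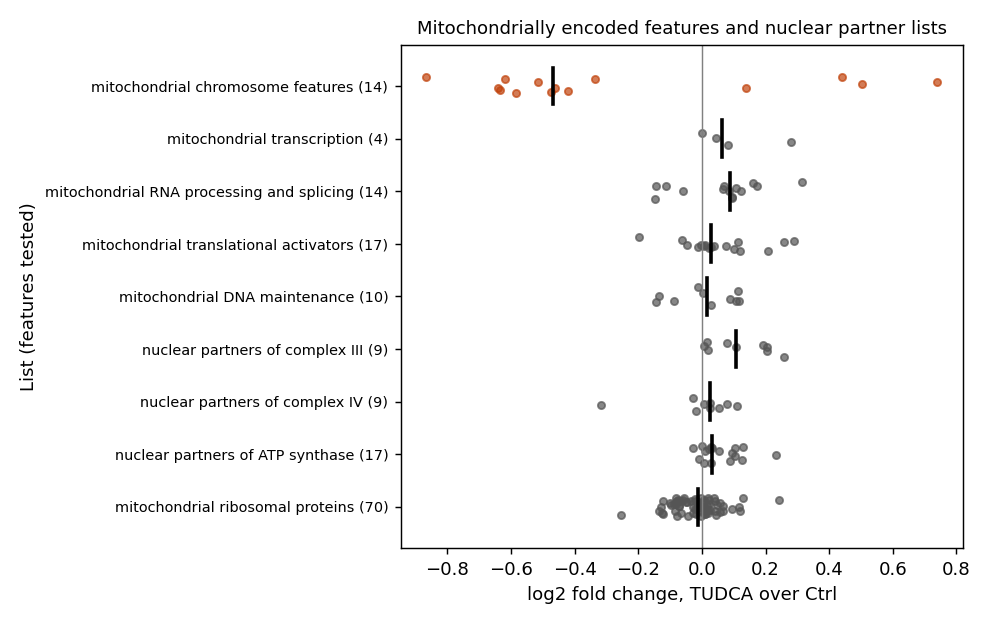
Log2 fold change of TUDCA over Ctrl (horizontal axis) for the tested mitochondrial features and for each nuclear list, with 1 point per feature and a line at each median. The mitochondrial features have a median of -0.47 and the nuclear lists have medians from -0.012 to 0.11, values that were -0.12 and 0.0090 to 0.13 without Ctrl replicate 2.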

How the data were processed

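Per the submitters' processing notes, the tools were STAR 2.5.4b, featureCounts 1.6.0 and DESeq2 1.26.0, and the genome build was R64. Strand setting, multimapping rule and annotation release are not given in the sources used here. The authors deposited raw counts per feature, which were the values tested. They also deposited a normalized signal, each library's counts over its own size factor (0.930 and 1.05 for TUDCA, 0.899 and 1.15 for Ctrl), used only in alternatives. In R 4.3.3 with edgeR 4.0.16, all 7127 features were fitted together: filterByExpr at a minimum count of 10 kept 6420, TMM factors scaled the libraries, and the quasi-likelihood F test was adjusted by Benjamini-Hochberg at 0.05 over all of them, with 2 residual degrees of freedom. DESeq2 1.42.0 and limma 3.58.1 were alternatives. The edgeR step was tested on simulated data. Member coordinates matched RefSeq's R64 for 46 of 55 features, none differed and 9 are not annotated there. Named genes followed the member classes and, in each nuclear list, the 2 smallest p. The members and lists were chosen with earlier results of these data known.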

Additional observations from a re-analysis of the deposited data

How the results depend on the processing

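The lower mitochondrial share in TUDCA kept its direction under all 9 alternatives, with a log2 ratio of -0.68 to -0.25 when 1 library was left out. Leaving out 1 library could not reverse it, because both TUDCA libraries were below both Ctrl libraries. The alternatives without the 21S rRNA and without the most abundant feature were the same calculation. The count of called members was 1 with DESeq2, 7 with the replicate number as a block and 0 to 11 without 1 library each, and 0 under other scalings, no filter, limma-voom and limma on log2 values. Over all features the calls were 61 with DESeq2, 353 with the replicate block (5.5%) and 7 to 2010 without 1 library each. Of the 150 genes in the nuclear lists, 3 were called with the replicate block, a smaller share than the 5.5% of all features. Without 1 library each, 0 to 27 of the 150 were called. The 27 came from the fit without Ctrl replicate 1, and were a smaller share than the 31% of all features called there. The labels do not say whether same-numbered libraries share more than the number. Their deviations correlated at 0.18 over 6420 features, and 2 pairs cannot settle the question. The block moved the adjusted p of the 21S rRNA to 3.09e-05 and that of SCEI to 2.81e-13 in edgeR. That model leaves fewer residual degrees of freedom than the main fit, and these values do not measure the spread between the pairs. In TMM-scaled CPM, SCEI was at 22.6 in TUDCA replicate 1 against 29.6 in Ctrl replicate 1. In replicate 2 it was at 24.3 in TUDCA against 55.8 in Ctrl, a much larger difference.

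Of 168 alternative fold changes of the 14 tested members, 165 kept their direction. AI3 ranged from -0.051 (without TUDCA replicate 2) to 0.88, ATP6 from -0.037 (without Ctrl replicate 2) to 0.32 and BI4 from -1.57 to 0.087 (without TUDCA replicate 1) when 1 library was left out, and the cause was not tested. The low-count filter left 41 members untested, among them Q0297 and tL(UAA)Q, which had 0 and 5 own bases.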
